A study of Homo sapiens with 3 samples.

Results

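The genes described here encode the subunits, activators and assembly chaperones of the proteasome. They were chosen by symbol, as protein-coding genes of GENCODE release 44 named PSMA, PSMB, PSMC, PSMD, PSME, PSMF or PSMG followed by a digit and without a hyphen. The rule gave 50 of the 62754 genes in the table, of which 20046 are protein-coding. RNA sequencing was carried out on MCF10A, a human breast epithelial cell line that is immortalised but does not form tumours. The cells carried an empty Retro-X Tet-One inducible vector with no gene of interest, were selected with puromycin and received no doxycycline. By the study's methods, RNA was taken 27 h after seeding, and 300 ng of it was depleted of ribosomal RNA before sequencing. Those methods describe MCF10A cells without naming a vector, which is known from the sample labels alone. All 3 replicates belong to 1 condition and 1 batch of a single line, so levels can be compared between genes but not between conditions. The vector and the selection are common to all 3 replicates, and no cells without them were analysed here.

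The proteasome is the protease that degrades most short-lived, misfolded and ubiquitin-tagged proteins of the cell. Its 20S core is a barrel of outer alpha rings and inner beta rings, and the PSMB5, PSMB6 and PSMB7 subunits of the beta ring carry the active sites. The 19S regulatory particle caps the core. Its base holds the ATPases (PSMC genes) that unfold substrates, and its lid holds the deubiquitinase PSMD14. In cells exposed to interferon the catalytic subunits are replaced by PSMB8, PSMB9 and PSMB10, and the resulting immunoproteasome is known for making peptides for antigen presentation. PSMA8 is a core subunit known from testis and PSMB11 one known from the thymic cortex. Transcription of constitutive subunits is known to respond to the factor NFE2L1 through antioxidant response elements, whereas interferon-inducible members are known to respond through interferon-stimulated response elements (ISRE).

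The promoter sequences of RefSeq (GRCh38.p14), which run from 250 bases before to 50 bases after the start of a gene, were matched for 44 of the 50 genes, and all 55 promoter sequences of these genes were identical to hg38 at their coordinates. The promoters for PSMA7, PSMB1, PSMB6, PSMB7, PSMD4 and PSMG3 were not among those matched. An ISRE-like run of letters, GAAA followed after any 2 bases by another GAAA, on either strand, was present in the promoters of 7 of the 44 matched genes (15.9%) and of 4.38% of all 27305 genes with a promoter. The 7 genes were PSMA4, PSMB4, PSMB8, PSMB10, PSMG4, PSME1 and PSME2, so that PSMB9 alone of the immune subunits had no match in its window. Here and for the runs below, a gene was counted where any of its promoters held the run. The 44 genes are all protein-coding, whereas the 27305 genes outnumber the 20046 protein-coding genes and so include others. The shares are therefore not of like sets of genes. The matches of the inducible members are shown here, because the levels of these genes are compared with those of their counterparts. Capitals mark the letters of the match, and each sequence reads 5′ to 3′ on the strand of its gene (hg38). The PSMB8 window lies at chr6:32844032-32844061 on the minus strand, the PSMB10 window at chr16:67936852-67936881 on the minus strand, the PSME1 window at chr14:24136189-24136218 on the plus strand and the PSME2 window at chr14:24146619-24146648 on the minus strand.
PSMB8: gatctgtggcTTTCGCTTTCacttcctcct
PSMB10: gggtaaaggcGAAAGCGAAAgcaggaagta
PSME1: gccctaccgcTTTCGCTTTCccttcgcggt
PSME2: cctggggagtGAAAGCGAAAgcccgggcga

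A run like the antioxidant response element, TGACNNNGC on either strand, was present in the promoters of 15 of the 44 matched genes (34.1%) and of 16.1% of all genes. Among the 26 matched constitutive subunits of core, base and lid it was present in 7 (26.9%). These 7 genes were PSMA4, PSMB3, PSMC4, PSMC5, PSMD1, PSMD3 and PSMD12. A match for 1 gene each of the alpha ring, the beta ring, the base and the lid is shown for contrast with the ISRE-like runs. The windows lie at chr15:78540650-78540678 for PSMA4, chr17:38752627-38752655 for PSMB3 and chr17:63827654-63827682 for PSMC5, all on the plus strand, and at chr17:67366724-67366752 on the minus strand for PSMD12.
PSMA4: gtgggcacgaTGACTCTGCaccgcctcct
PSMB3: gcctccgtttTGACTTTGCaaccaaacta
PSMC5: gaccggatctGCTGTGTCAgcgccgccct
PSMD12: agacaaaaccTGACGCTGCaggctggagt
The CCAAT letters were present in 22 of the 44 matched genes (50%) and in 39.7% of all genes, and the interferon gamma-activated run TTCNNNGAA in 8 (18.2%) against 9.38%. The matches in PSMB8, PSME1 and PSMC5 read on the strand opposite to the gene, and appear above as the reverse complement of the run. A match of letters is a description of the sequence, and binding of a factor was not measured. The ISRE-like run and the TGACNNNGC run were both present in the promoters of PSMA4, PSME1 and PSME2.

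Levels are given as TPM, a unit for which read counts are divided by transcript length and brought to a total of 1000000 in each replicate. The deposited TPM corresponded to the longest transcript of each gene, and reads recovered on that length came to 15273329, 15446347 and 11166546 in replicates 1, 2 and 3. The 50 genes held 87879, 85520 and 64051 of these reads. Their share of reads was 0.575% (95% Wilson interval 0.572 to 0.579%), 0.554% (0.550 to 0.557%) and 0.574% (0.569 to 0.578%), where the intervals cover counting error only. Their share of TPM was 0.729%, 0.690% and 0.626%. The basal epithelial markers KRT5, KRT14, KRT17, TP63 and CDH1 were all at or above 1 TPM, from 29.1 TPM for CDH1 to 6612 TPM for KRT5. None of 5 leukocyte markers reached 1 TPM, with summed levels of 0.361, 0.443 and 0.0621 TPM, and CD3E was at 0 in each replicate. For the leukocyte marker CD68, 94.9% of the main (canonical) transcript lies in exons of another gene on the same strand. Its low level therefore does not by itself show that it was absent. As RNA was measured in bulk, fewer cells that express a gene and less of its RNA per cell cannot be told apart. Of 5 endothelial or fibroblast markers only COL1A1 (4.96 TPM) and PECAM1 (1.77 TPM) reached 1 TPM, and CDH5 was at 0.

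In these cells nearly all proteasome genes were expressed, and many of them at high levels. A mean of at least 1 TPM, the cutoff of expression used by the study, was reached by 47 of the 50 genes, compared with 56.7% of all protein-coding genes, and the same 47 reached it in every replicate (55.2% of protein-coding genes). A mean of at least 10 TPM was reached by 43 genes (41.7% of protein-coding genes) and of at least 100 TPM by 26 genes (7.86%). The genes under 1 TPM were PSMB9, PSMA8 and PSMB11, of which PSMA8 and PSMB11 had 0 reads in every replicate, as had 26.2% of protein-coding genes. The median over the 50 genes was 108 TPM, and that over the 11360 protein-coding genes of at least 1 TPM was 24.9 TPM. The genes were picked by name, and no test was run on these shares.

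**Figure D1:**
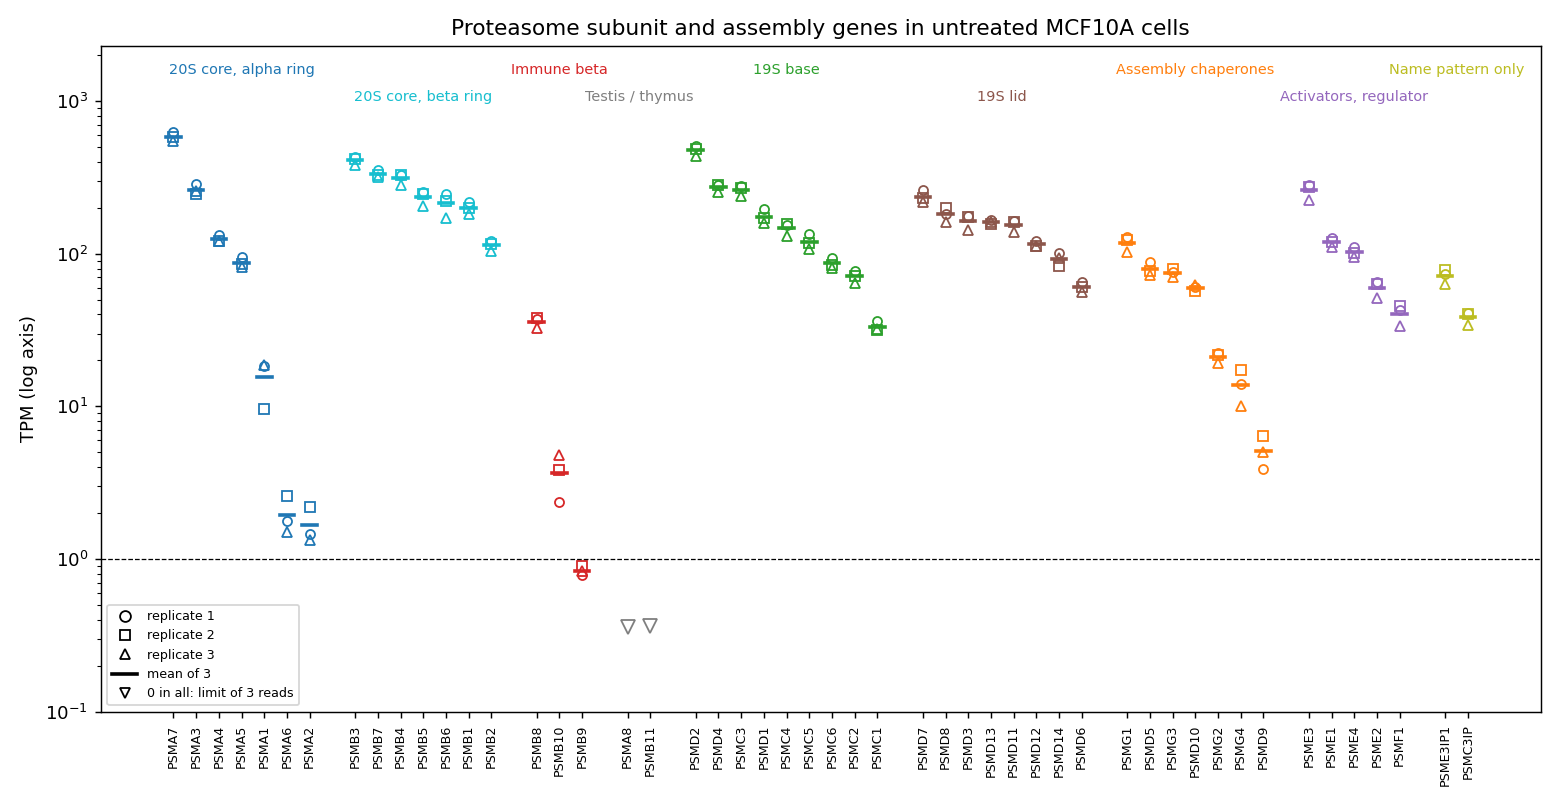
Level of each of the 50 genes in TPM (log axis) by class, with a symbol for each replicate and a bar at the mean of 3 replicates. Open triangles pointing down mark the limit of 3 reads for PSMA8 and PSMB11, which had 0 reads in each replicate, and the dashed line marks 1 TPM. The beta ring, base and lid genes lie between 33.3 and 479 TPM, whereas PSMA1, PSMA2 and PSMA6 lie under the other alpha ring genes.

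Within the 20S core, the 7 constitutive beta subunits were all high in the deposited values. The 7 alpha subunits split into 4 high and 3 low genes. The beta genes all exceeded 100 TPM, with a median of 235 TPM and a range from 113 to 409 TPM, a 3.61-fold span. PSMB3, a structural subunit, was the highest, at 434, 415 and 380 TPM in replicates 1, 2 and 3 (409 ± 27.5, SD, n = 3). PSMB7, which carries the trypsin-like activity, followed with 352, 326 and 319 TPM (332 ± 17.2). These genes kept the same order in all 3 replicates. PSMB4, a structural subunit, had 326, 328 and 283 TPM (312 ± 25.8), and its order against PSMB7 held in 2 of 3 replicates. PSMB5, which carries the chymotrypsin-like activity, had 255, 247 and 204 TPM (235 ± 27.3). PSMB6, which carries the caspase-like activity, had 248, 220.4 and 172 TPM (213 ± 38.5) and was below PSMB5 in every replicate. The 3 active-site subunits thus ordered as PSMB7, PSMB5 and PSMB6, with the last of these the most variable of the beta ring between replicates. The structural subunits PSMB1 and PSMB2 were at 199 ± 18.7 and 113 ± 8.73 TPM.

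Of the alpha subunits, which form the gate of the barrel, PSMA7 (ENSG00000101182, chromosome 20, 62136733 to 62143440) was the highest of all 50 genes. It had 623, 581 and 549 TPM (584 ± 37.1), which placed it at percentile 99.1 of protein-coding genes, and it stood above the second gene, PSMD2, in every replicate. PSMA3 had 285, 247 and 256 TPM (263 ± 19.9), PSMA4 133, 121 and 122 TPM (125 ± 6.39) and PSMA5 95.1, 85.9 and 81.3 TPM (87.5 ± 7.02). The groups of values of these 4 genes did not overlap. The remaining 3 alpha subunits were far lower. PSMA1 had 18.4, 9.61 and 18.7 TPM (15.6 ± 5.15), PSMA6 had 1.77, 2.58 and 1.51 TPM (1.95 ± 0.557), and PSMA2 had 1.45, 2.20 and 1.33 TPM (1.66 ± 0.473). Replicate 2 was the lowest for PSMA1 and the highest for PSMA2 and PSMA6.

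The low alpha subunits are the genes whose exons are shared with another annotated gene. The share was measured as the part of the canonical transcript that lies in exons of other genes on the same strand. All of PSMA2 (100%), 81.4% of PSMA6 and 67.0% of PSMA1 were shared in this way, whereas the other 11 core subunits had 0%. The partner of PSMA1 was the protein-coding gene ENSG00000256206 (chromosome 11, 14493783 to 14520344), that of PSMA2 was ENSG00000256646 (chromosome 7, 42909273 to 42932214) and that of PSMA6 was ENSG00000258790 (chromosome 14, 35122549 to 35317474). These partners held almost no reads either, with 0 in every replicate for the partners of PSMA1 and PSMA2, and with 2, 1 and 0 for the partner of PSMA6. The members themselves held 147, 79 and 127 reads (PSMA1), 41, 64 and 32 reads (PSMA2) and 44, 66 and 32 reads (PSMA6). How reads in exons of several genes were counted is not given in the sources used here, and the part of shared exons in these levels was not tested.

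The shared part came to 50% or more in 4 of the 50 genes, and in 1323 of the 20046 protein-coding genes (6.6%). The fourth was PSMB10, with 56.1%, and PSMD9 had 28.8%. A mean under 10 TPM was seen in 3 of these 4 genes, as in 96.1% of the 1323 protein-coding genes with at least 50% shared. Without the 3 shared alpha genes, the 11 remaining core subunits had a median of 235 TPM and ranged from 87.5 to 584 TPM, a 6.68-fold span, and the SD among their log2(TPM + 1) values was 0.82. With all 14 core genes the median was 206 TPM and the SD 2.51, so the spread within the core rested on the 3 genes with shared exons. Of the 31 constitutive subunits, all 22 that reached 100 TPM were among the 28 without shared exons.

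**Figure D2:**
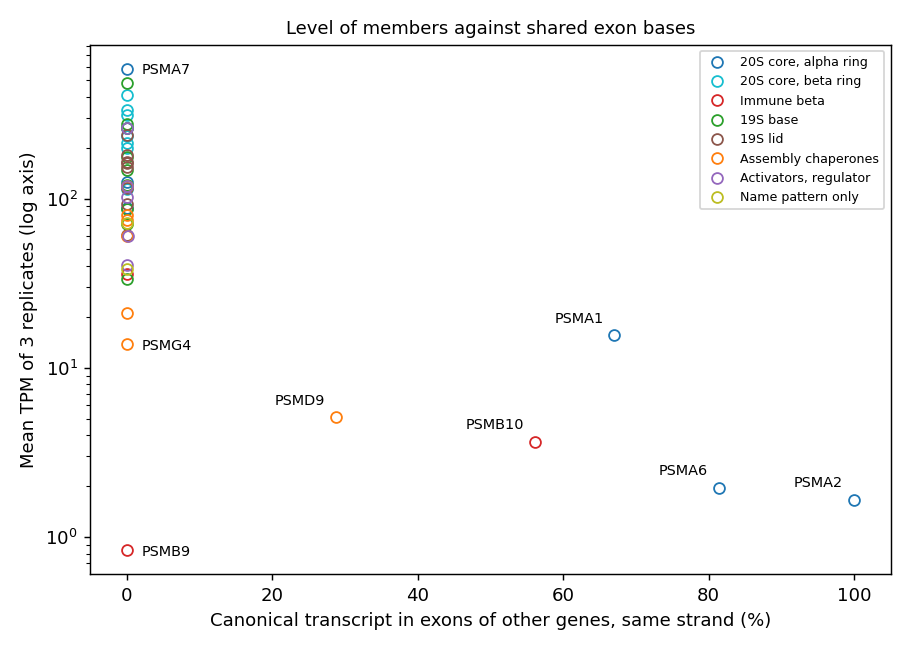
Mean level in TPM (log axis) of the members with reads against the percentage of the canonical transcript that lies in exons of other genes on the same strand. PSMA2, PSMA6, PSMB10 and PSMA1, with 56.1 to 100% shared, and PSMD9, with 28.8%, lie between 1.66 and 15.6 TPM, and PSMB9 is the only member with a lower mean and no shared exons.

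The immune subunits stood well below the constitutive subunits that they replace, although by very different factors. PSMB8 (ENSG00000204264, chromosome 6, 32840717 to 32844679), the inducible counterpart of PSMB5, was readily detected at 37.2, 37.8 and 32.8 TPM (35.9 ± 2.74, with 464, 485 and 348 reads). PSMB5 exceeded it 6.86-, 6.53- and 6.23-fold in replicates 1, 2 and 3. PSMB9 (ENSG00000240065, chromosome 6, 32844136 to 32859851), the counterpart of PSMB6, was close to the limit of detection. It had 0.781, 0.898 and 0.834 TPM (0.838 ± 0.0585), which rested on 11, 13 and 10 reads, and PSMB6 exceeded it 318-, 246- and 206-fold. PSMB10 (ENSG00000205220, chromosome 16, 67934506 to 67936864), the counterpart of PSMB7, had 2.35, 3.81 and 4.83 TPM (3.66 ± 1.25) from 12, 20 and 21 reads. PSMB7 exceeded it 149.7-, 85.6- and 66.0-fold.

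PSMB8 was thus the only immune subunit above 10 TPM, and it exceeded PSMB9 42.9-fold and PSMB10 10.2-fold as geometric means over the replicates, in 3 of 3 replicates each. With the length of the canonical transcript in place of the longest one, the excess over PSMB10 was 21.7-fold and that over PSMB9 34.4-fold. The annotated spans of PSMB8 and PSMB9 overlap in part on opposite strands of chromosome 6. The exons that PSMB10 shares belong to ENSG00000261884 (chromosome 16, 67929614 to 67936017), as described above at 56.1%, and that gene held 3, 15 and 6 reads. The part of this sharing in the low level of PSMB10 was not tested. PSMB9 had no shared exons. On the log2(TPM + 1) scale, which understates differences of low genes, the difference of PSMB8 from PSMB5 was -2.67 ± 0.07 (SD, n = 3), that of PSMB9 from PSMB6 was -6.85 ± 0.28 and that of PSMB10 from PSMB7 was -6.19 ± 0.48. Each of these directions held in 3 of 3 replicates. A two-sided exact permutation of signs over 3 replicates cannot give a p below 0.25, so no p-value is given for these and the other differences between genes.

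**Figure D3:**
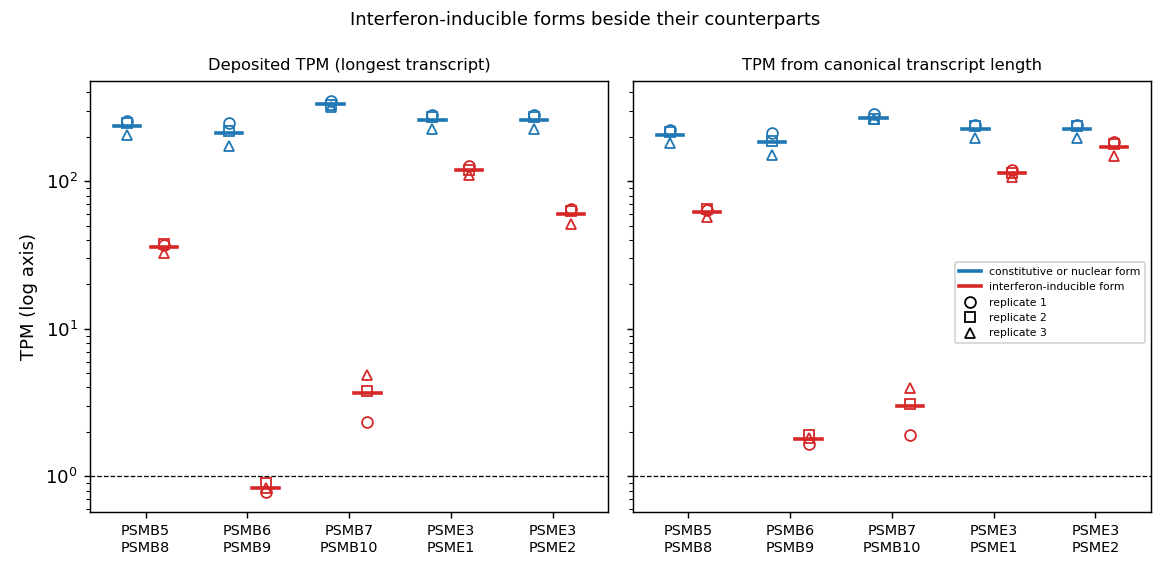
Levels in TPM (log axis) of the interferon-inducible forms (red) beside their constitutive or nuclear counterparts (blue), with a symbol for each replicate and bars at the means. The left panel shows the deposited TPM and the right panel TPM recomputed with the canonical transcript length. PSMB9 and PSMB10 lie far under PSMB6 and PSMB7, by 252-fold and 94.6-fold as geometric means, in the left panel, and PSME2 approaches PSME3 in the right panel.

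Of the tissue-restricted core subunits, PSMA8, the testis counterpart of PSMA7, and PSMB11, the catalytic subunit of the thymoproteasome, were listed at 0 in each replicate. A count of 0 allows up to 0.358 TPM for PSMA8 and up to 0.362 TPM for PSMB11, at the limit of 3 reads in the shallowest replicate. Neither gene shared exons with another gene. Among germ cell and thymic markers, DAZL was at 0, DDX4, SYCP3 and FOXN1 were under 1 TPM, and PRSS16 was at 5.74 TPM.

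In the 19S base, which recruits and unfolds substrates, the scaffold gene PSMD2 and the receptor gene PSMD4 were at the top and the ATPase PSMC1 at the bottom. PSMD2 had 511, 488 and 436 TPM (479 ± 38.3), and PSMD4, a ubiquitin receptor, had 284, 284 and 255 TPM (274.5 ± 16.8). The 6 ATPases form a ring in the particle, and their levels ranged from PSMC3 with 279, 269 and 239 TPM (262 ± 20.5) to PSMC1 with 36.3, 31.5 and 32.1 TPM (33.3 ± 2.63). Between them were PSMC4 (148 ± 14.6 TPM), PSMC5 (120 ± 14.0 TPM), PSMC6 (86.5 ± 6.97 TPM) and PSMC2 (71.2 ± 6.65 TPM). PSMD1, a scaffold of the base, was at 175 ± 18.7 TPM. Over the 9 base genes the median was 148 TPM and the span 14.4-fold.

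PSMC1 had the largest share of sequence that also occurs elsewhere. Of its canonical transcript, 37.96% of 50-base stretches and 31.7% of 100-base stretches were found at another place in the genome, and 13 of the 44 pseudogenes with PSM symbols are named after it. In addition, 83.2% of its canonical transcript was overlapped by exons on the opposite strand. At least 10% of 50-base stretches were also found elsewhere for PSMC6 (30.8%), PSMA6 (27.6%), PSMD4 (23.4%), PSME2 (19.8%) and PSMD2 (11.3%). For stretches of 100 bases the shares were lower, at 9.98% for PSMC6, 7.47% for PSMA6, 6.07% for PSMD4, 3.46% for PSME2 and 3.09% for PSMD2. Reads that lie wholly within repeated stretches cannot be assigned to a single gene by their sequence, but read length was not considered here. The levels of these 6 genes are uncertain for this reason, by an amount that was not tested. PSMD2 and PSMD4 were nonetheless among the highest genes.

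The lid was the most even class of the regulatory particle. Its 8 genes had a median of 158 TPM and ranged from 60.5 to 237 TPM, a 3.91-fold span, with an SD of 0.62 among log2(TPM + 1) values, compared with 1.15 in the base. PSMD7, the partner of the deubiquitinase in the lid, was the highest at 260, 231 and 219 TPM (237 ± 21.0), although 51.6% of its canonical transcript was overlapped by exons on the opposite strand. The structural subunits PSMD8 (181 ± 18.4 TPM), PSMD3 (164 ± 18.9 TPM), PSMD13 (162 ± 4.91 TPM), PSMD11 (154.5 ± 13.1 TPM) and PSMD12 (116 ± 4.71 TPM) followed. PSMD14, the deubiquitinase that removes ubiquitin chains from substrates, had 101, 83.7 and 93.4 TPM (92.6 ± 8.46). PSMD6 was the lowest, with 65.1, 60.4 and 56.2 TPM (60.5 ± 4.45), and it was below PSMD14 in every replicate. For PSMD14 and PSMD6 the longest transcript was 3.12 and 3.36 times as long as the canonical one, which bears on their place in this order.

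The assembly chaperones, which help build the particle and are not part of the finished proteasome, had a lower median than the core, base and lid genes. It was 59.9 TPM, and of the 7 genes only PSMG1 reached 100 TPM. PSMG1 and PSMG2 form a dimer that assists the alpha ring, and PSMG3 and PSMG4 form another. PSMG1 had 129, 124 and 102.5 TPM (118 ± 14.0) and PSMG2 22.3, 21.6 and 19.3 TPM (21.0 ± 1.57). PSMG3 was at 75.0 ± 4.58 TPM and PSMG4 had 13.9, 17.3 and 10.03 TPM (13.7 ± 3.61). The 2 members of each dimer thus differed 5.61-fold and 5.58-fold in the deposited values. The chaperones of the base were PSMD5 (79.7 ± 8.38 TPM), PSMD10 (60.2, 56.8 and 62.6 TPM, 59.9 ± 2.88) and PSMD9 (3.86, 6.42 and 5.05 TPM, 5.11 ± 1.28). PSMD9, the lowest chaperone, shared 28.8% of its canonical transcript with ENSG00000256950 (chromosome 12, 121888809 to 121921470), which had 0 reads, and held 62, 106 and 69 reads itself.

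Of the activators that bind the ends of the core in place of the 19S particle, PSME3, the nuclear form PA28 gamma, was the highest. It had 282, 274 and 225 TPM (260.3 ± 30.7). PSME1 and PSME2, which form the interferon-inducible PA28 ring, had 126, 119 and 111 TPM (119 ± 7.66) and 65.2, 63.1 and 51.5 TPM (59.9 ± 7.35). PSME3 exceeded PSME1 2.23-, 2.30- and 2.03-fold and PSME2 4.32-, 4.34- and 4.37-fold. With the canonical length the excess over PSME2 was only 1.32-fold, and that over PSME1 was 1.97-fold. In contrast to PSMB9 and PSMB10, both interferon-inducible activator genes were therefore well above 10 TPM. PSME4, the activator PA200, was at 102 ± 8.01 TPM, and PSMF1, known as an inhibitor of the core, at 40.6 ± 6.09 TPM. PSMC3IP and PSME3IP1 carry the symbol pattern but are not subunits of the proteasome, and were at 38.3 ± 3.55 and 71.9 ± 7.53 TPM.

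The length by which reads are divided mattered for several of these levels. The longest transcript was at least 2 times as long as the canonical one in 11 of the 50 genes, at least 1.25 times as long in 19 and of equal length in 20. TPM were therefore recomputed from the same reads with the canonical length of every gene, which lowered genes of equal length by the change in the common scale, such as PSMB7 from 332 to 269.8 TPM. Among the beta genes, PSMB4 rose from 312 to 575 ± 40.4 TPM and PSMB1 from 199 to 354 ± 29.6 TPM, and PSMB4 became the highest of all 50 genes, above PSMA7 at 505 ± 27.1 TPM. In the lid, PSMD14 rose from 92.6 to 236 ± 22.0 TPM and PSMD6 from 60.5 to 167 ± 10.5 TPM, and the span of the lid narrowed from 3.91-fold to 2.61-fold. The lowest lid gene was then PSMD12, at 94.3 TPM.

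The dimers of chaperones moved most. PSMG2 rose from 21.0 to 91.6 ± 5.71 TPM, its longest transcript having 5694 bases and its canonical one 1070 bases. PSMG4 rose from 13.7 to 65.8 ± 16.6 TPM, with 4603 and 785 bases. The 2 members of each dimer then stood at nearly the same level, with ratios of 1.05 for PSMG1 to PSMG2 and of 0.952 for PSMG3 to PSMG4, each with a direction that differed between replicates. PSME2, with 2754 and 793 bases, rose to 169.9 ± 18.8 TPM and exceeded PSME1 (113 ± 6.09 TPM) 1.49-fold in 3 of 3 replicates, whereas PSME1 exceeded PSME2 1.99-fold in 3 of 3 replicates with the deposited values. The order of these partners was therefore set by the choice of length. PSMB8 rose to 61.9 ± 3.97 TPM and PSMB9 to 1.80 ± 0.126 TPM. PSMB5 then exceeded PSMB8 3.31-fold and PSMB6 exceeded PSMB9 100.8-fold, whereas PSMB7 exceeded PSMB10 94.6-fold with either length. The low levels of PSMA2 (5.08 ± 1.40 TPM), PSMA6 (7.37 ± 2.04 TPM) and PSMA1 (16.2 ± 5.45 TPM) were still the lowest of the core. Which transcripts are present in these cells was not measured.

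**Figure D4:**
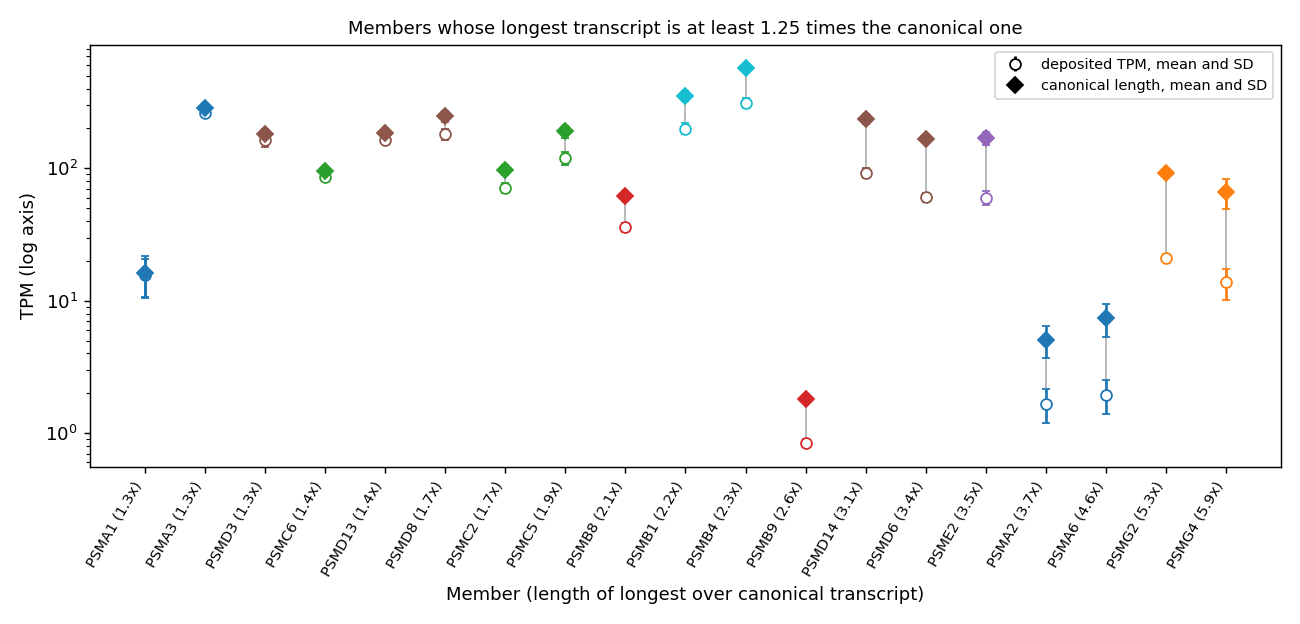
Mean level in TPM (log axis, error bars SD over 3 replicates) of the 19 genes whose longest transcript is at least 1.25 times as long as the canonical one, as deposited (open circles) and recomputed with the canonical length (diamonds). The largest moves are those of PSMG4 (13.7 to 65.8 TPM) and PSMG2 (21.0 to 91.6 TPM), and PSMD14, PSMD6 and PSME2 pass 100 TPM with the canonical length.

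Differences between replicates were small against those between genes, and they mostly ran in 1 direction. The spread between replicates, taken as the SD of log2(TPM + 1), had a median of 0.13 over the 47 genes of at least 1 TPM and 0.16 over all protein-coding genes of at least 1 TPM. Replicate 3 was the lowest in 36 of the 43 genes of at least 10 TPM, near the 84.3% found among all protein-coding genes of that level. The median difference of replicate 3 from the mean of replicates 1 and 2 was -0.19 on the log2 scale for the 47 genes, and -0.23 for protein-coding genes of at least 10 TPM. Protein-coding genes held 91.5, 89.8 and 79.6% of TPM in replicates 1, 2 and 3. The lower values of replicate 3 in the proteasome genes thus went along with a lower total of protein-coding genes in that replicate.

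The highest differences of replicate 3 from the mean of replicates 1 and 2 were those of PSMB10, at 0.52, and PSMA1, at 0.39. The lowest were those of PSMG4, at -0.59, and PSMB6, at -0.44. For PSMA1, replicates 1 and 3 were nearly equal, at 18.4 and 18.7 TPM, and replicate 2 was low, at 9.61 TPM. PSMB10 and PSMA1 are both genes with shared exons and few reads. So are PSMA2 and PSMA6, which were lower in replicate 3, at -0.28 and -0.34. PSMG4 had 338, 430 and 207 reads. PSMD14, at 0.02, and PSMD10, at 0.09, were not lower in replicate 3. The reads of the genes varied by more than counting error, with a median chi-square of 11.7 per degree of freedom over 48 genes. Counting error alone gives a mean of about 1 and a median below that. The median was 3.08 where protein-coding genes were scaled to equal totals. Replicates are known only as separate samples, and whether they came from separate cultures is not given. Ordered by mean, 24 of the 47 pairs of neighbouring genes kept the same order in every replicate, and the other 23 pairs changed places in at least 1 replicate, so neighbouring ranks were often not distinguished.

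**Figure D5:**
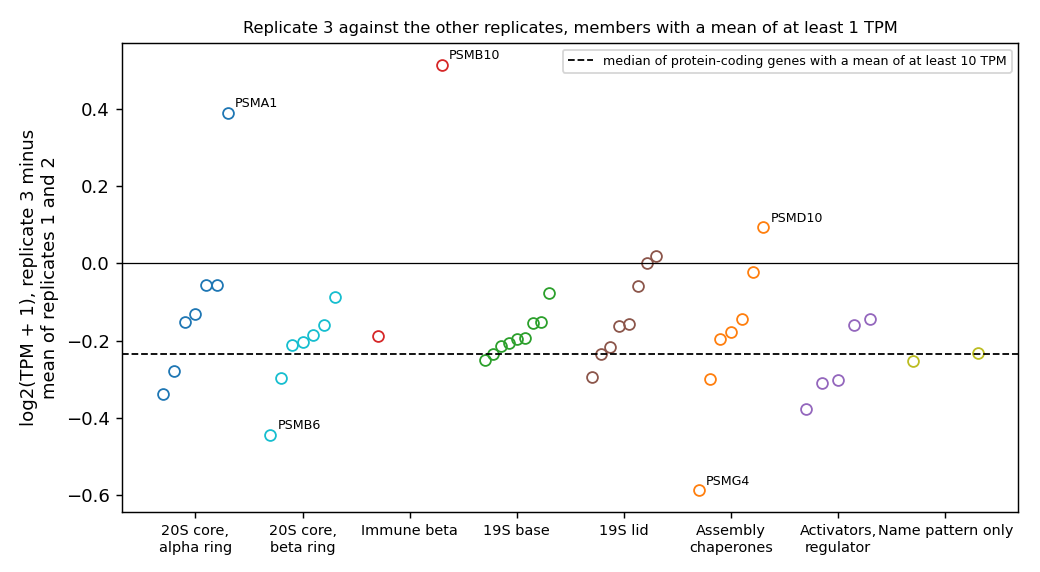
Difference between replicate 3 and the mean of replicates 1 and 2, as log2(TPM + 1), for the members of at least 1 TPM by class. The dashed line marks the median of protein-coding genes of at least 10 TPM (-0.23). Most genes lie between 0 and the line or near it, with PSMB10 and PSMA1 above 0 and PSMG4 lowest at -0.59.

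Genes that work with these members but lie outside the symbol rule were also examined. All 12 genes for bound factors reached 1 TPM, with a median of 75.8 TPM. POMP, the maturation factor that completes the core with PSMG1 and PSMG2, was the highest, at 195 ± 9.87 TPM, followed by the ubiquitin receptor ADRM1 at 191 ± 25.4 TPM. SEM1, the remaining subunit of the lid, was at 40.6 ± 6.50 TPM as deposited, under all 8 lid genes of the symbol rule, and at 201 TPM with the canonical length, where it lay within their range of 94.3 to 247 TPM. The deubiquitinases USP14 and UCHL5 were at 107 and 63.5 TPM, and the ubiquitin ligase UBE3C at 130.1 TPM. ECPAS, PITHD1, AKIRIN2, ZFAND5 and TXNL1 lay between 32.7 and 104 TPM. PAAF1, a chaperone of the base, was the lowest, at 7.37 ± 1.11 TPM, close to the level of PSMD9.

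All 8 genes for the regulation of proteasome transcription reached 1 TPM, from MAFF (16.3 ± 1.70 TPM), a small partner of the factor, to NFE2L1 itself (110.2 ± 13.8 TPM). Of 11 genes for ubiquitin and substrate delivery, 10 reached 1 TPM and RPS27A, a ubiquitin fusion gene, was the highest at 1621 ± 44.6 TPM. PSMA2 and PSMA6 encode core subunits that every cell needs and were at 1.66 and 1.95 TPM. A value near or at 0 in this table therefore does not by itself show that a gene was silent. This caution is kept for PSMA8 and PSMB11 too, although these, unlike PSMA2 and PSMA6, share no exons with other genes. Of 7 genes for the interferon response and antigen processing, 6 reached 1 TPM, and the median over all 7 was 14.0 TPM. IFNG, which encodes interferon gamma, was the lowest and was listed at 0 in each replicate. The levels of PSMB8, PSME1 and PSME2 were thus measured in cells in which neither IFNG reads nor leukocyte markers above 1 TPM were found. The caution on low values holds for these genes too, and the leukocyte marker CD68 shares most of its exons with another gene.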

How the data were processed

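RNA sequencing data of 3 replicates of untreated MCF10A cells with an empty vector were analysed. The authors deposited 1 table of TPM for 62754 genes, made with Seq2science on hg38. The submitters' processing notes name STAR, fastp and MultiQC without versions, and the annotation release and strand setting are not given in the sources used here. The table has 0 unused columns of values.

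Genes were matched to GENCODE release 44 by Ensembl identifier (62700 matched, 54 not). TPM times the length of the longest transcript, with 1 base less per exon, divided by its smallest value above 0 in a replicate, was whole for 100% of genes (tolerance 0.01) and taken as reads. Rescaled TPM used the canonical transcript length and the same reads. Gene sharing was computed with bedtools 2.31.1 over exons of the canonical transcript, and repeated stretches of 50 and 100 bases by exact match to the genome. Differences between genes were computed on log2(TPM + 1) where stated, folds without a pseudocount, and summarised as mean and SD over replicates. Since all samples are of 1 condition, no differential test was run. A value of 0 was given the limit of 3 reads. Promoters were taken from RefSeq, and no protein sequences were used here.

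The 50 genes and the lists of partners and markers were chosen with earlier results of these data known. Every gene of the symbol rule is named or lies inside a stated range. Of the bound partners every gene could be named, of other partner lists the highest and the lowest, and all markers. Some genes that this rule names are not reported here. Alternatives covered the cutoff, the summary of replicates, the pseudocount, gene length, mitochondrially encoded genes, the scaling to protein-coding genes and leaving out each replicate. Scripts were tested on simulated data and run with Python 3.11.15, numpy 2.4.6, pandas 2.3.3, scipy 1.17.1, numba 0.67.0 and matplotlib 3.10.9.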

Additional observations from a re-analysis of the deposited data

How the results depend on the processing

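No paired analysis was possible because a single condition was sampled. Under the alternatives 93 values stayed within the spread between replicates or, for counts, within 1.5 times, 27 moved further, and none of these changed sign. The comparisons of PSME1 with PSME2 and of PSMG3 with PSMG4 were not among these values, and their log2 ratios turned with the canonical length, from 0.99 to -0.58 and from 2.48 to -0.07. Between 43 and 48 genes reached the cutoff of expression under the alternatives run, the lowest number where genes with at least 50% shared exons were left out, which removes 4 genes.

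With the canonical transcript length, the medians were 178 TPM for the base, 182 TPM for the lid and 65.0 TPM for the chaperones, the SD of log2(TPM + 1) was 2.14 in the core and 0.83 over base and lid (0.91 as deposited), and the log2 differences were -1.71 for PSMB8 to PSMB5, -6.03 for PSMB9 to PSMB6 and -0.97 for PSME1 to PSME3 (-1.12 as deposited). With a pseudocount of 0.1 TPM the difference of PSMB9 to PSMB6 was -7.82 and the SD in the core 2.70, and without a pseudocount that difference was -7.98. Without mitochondrially encoded genes the median of the chaperones was 63.8 TPM. With protein-coding genes scaled to 1000000, the medians were 237 TPM for the core, 169 TPM for the base, 182 TPM for the lid and 69.2 TPM for the chaperones, and the genes held 0.784% of TPM (0.682% as deposited). On that scale the median SD between replicates over all 50 genes was 0.067 (0.12 as deposited), the median difference of replicate 3 was -5.24e-05 (-0.18 as deposited) and the chi-square 3.08 per degree of freedom. Leaving out each replicate in turn, the SD between replicates ranged from 0.066 (without replicate 3) to 0.15 (without replicate 2). The chi-square per degree of freedom ranged from 4.07 (without replicate 3) to 14.7 (without replicate 2). These chi-squares have fewer degrees of freedom than the value over all replicates, so they are not directly comparable with it.

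Some alternatives were chosen after seeing the data. Without the shared genes the core had a median of 235 TPM and an SD of 0.82, and with the canonical length as well 269.8 TPM and 0.99. Where no value shows it, the cause was not tested. Depth limits PSMB9 and PSMB10, with 10 to 21 reads per replicate, and PSMA8 and PSMB11, with 0 reads.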

Other observations

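Pseudogenes and lncRNAs that carry proteasome symbols were also listed in the table. Of 44 pseudogenes 33 had 0 reads in every replicate and 11 had reads, and 4 reached 1 TPM, the highest being PSME2P2 at 5.25 TPM. All 7 lncRNAs with such symbols had reads in at least 1 replicate, and 4 of them reached 1 TPM. PSMA3-AS1 was the highest, with 29.3, 35.2 and 28.6 TPM (31.0 ± 3.63, SD, n = 3), against 263 TPM for PSMA3. PSMD6-AS2, PSMD6-AS1 and PSMB8-AS1 were at 3.28, 1.33 and 1.12 TPM. The genes named in this paragraph were chosen after their values were seen, and use of strand in counting is not given in the sources used here, so reads of a gene and of its antisense partner cannot be told apart.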
